A study of Mus musculus with 11 samples.

Results

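The genes described here encode the core of mitochondrial fatty acid oxidation and a pair of the nuclear receptors that control it, in mouse macrophages given a microRNA-150 mimic. They were chosen by symbol: Cpt1a, Cpt2, Acadm, Acadl, Acads, Acadvl, Hadha, Hadhb, Ppard and Pparg, 10 of the 31936 genes in the deposited table. All 10 were found and all 10 passed the filter on low values, as did 12969 genes in all. RNA sequencing was done on 6 libraries from cells treated with the mimic, a short synthetic duplex that supplies more of this microRNA to the cell, and on 5 libraries from cells treated with a negative control. All 11 came from peritoneal macrophages elicited with thioglycollate, an irritant that draws inflammatory macrophages into the abdominal cavity, and all donors were female; the sources used here do not give strain, age or time after treatment. A further control sample was prepared and, per the series' design text, left out by the submitters because of improper fragmentation. The labels name no animal or culture for any replicate. The p-values therefore speak only of the spread between these libraries, which may be technical.

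Long-chain fatty acids enter mitochondria as carnitine esters, made at the outer membrane by the CPT1 enzymes and turned back into acyl-CoA at the inner membrane by CPT2. Acyl-CoA dehydrogenases of different chain-length preference then begin each round of beta-oxidation, and for long chains the trifunctional protein, built from the products of Hadha and Hadhb, carries out the remaining steps. PPAR-delta and PPAR-gamma are lipid-activated transcription factors that bind DNA with a retinoid X receptor. In macrophages PPAR-gamma is known for its control of lipid uptake and handling, and fatty acid oxidation is known as a feature of alternatively activated cells.

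Of the 10 genes, 3 fell with the mimic (Acads, Ppard and Acadm), 1 rose (Acadl) and 6 did not pass the test. The test was a limma fit across all 12969 genes, with calls at a Benjamini-Hochberg adjusted p below 0.05. Across those genes 30.0% were called, 15.4% as higher and 14.6% as lower, so 4 called genes of 10 are close to that background. The median log2 fold change of the 10 genes was -0.030, and that of all genes tested 0.00071. Acads, at -0.43 ± 0.083 (SE), and Ppard, at -0.31 ± 0.061, had the largest changes of the 10. A share of 4.79% of all genes tested had a lower log2 fold change than Acads, and 9.55% a lower one than Ppard. Acads and Ppard also passed under each of the 20 alternative settings, whereas Acadl passed under 9 and Acadm under 5.

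**Figure D1:**
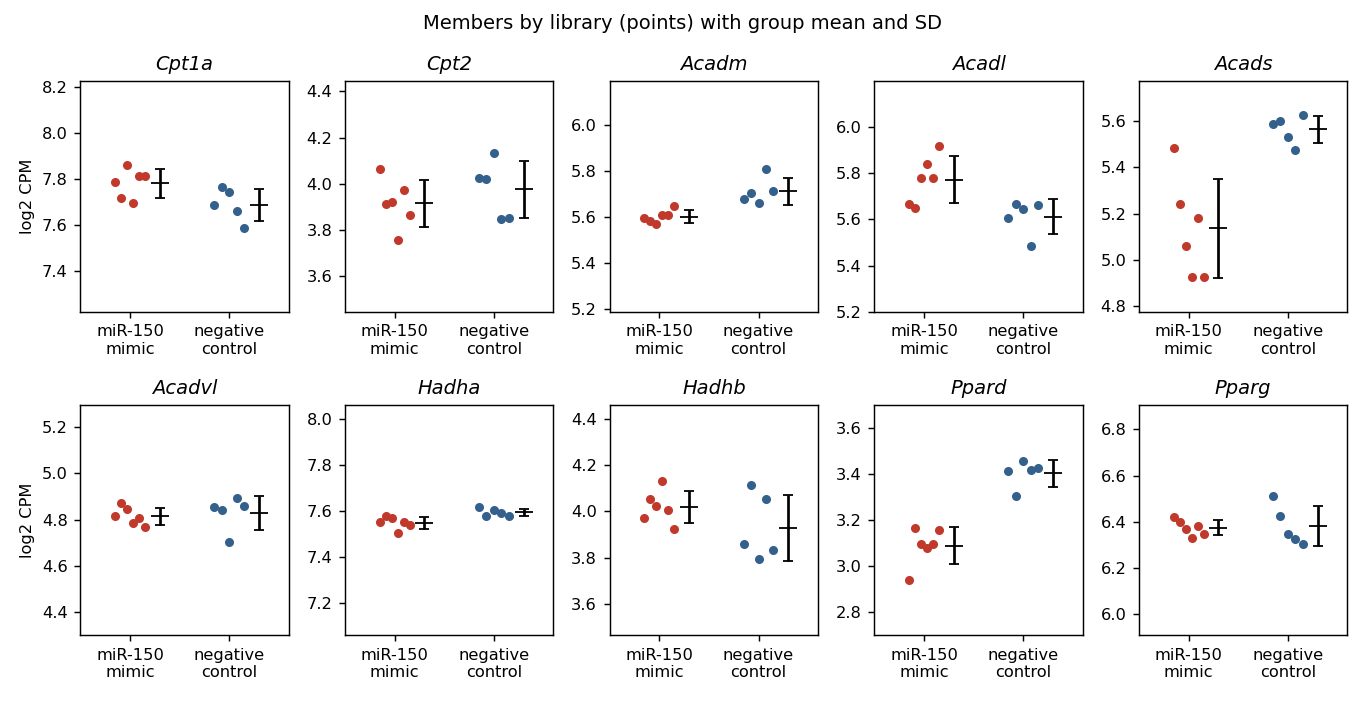
Each panel plots the log2 CPM (reads scaled to library size, on the log2 scale) of 1 gene in every library, with the 6 mimic libraries left and the 5 negative control libraries right; black marks are the group mean and SD, and each vertical axis spans 1 log2 unit. The groups do not overlap for Ppard, Acadm and Hadha, as was so in either direction for 14.9% of genes tested. Acads spreads from 4.92 to 5.48 in the mimic libraries, and Hadha varies least.

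The promoters of Acads and Ppard, the genes with the largest changes, follow. The Hadhb window is printed as well because it overlaps that of Hadha, which is transcribed in the opposite direction. The RefSeq start of Hadha, at 30154980, lies outside the printed bases. The GENCODE M21 annotation differs and places the start of Hadha at 30155162, inside them. Each window covers 250 bases before to 50 bases after a RefSeq transcript start (GRCm38.p6), on the gene's own strand, and capitals mark the GC box GGGCGG on either strand, a motif bound by SP1. The build used by the authors is not given in the sources used here.
Acads, chr5:115119297-115119596, minus strand: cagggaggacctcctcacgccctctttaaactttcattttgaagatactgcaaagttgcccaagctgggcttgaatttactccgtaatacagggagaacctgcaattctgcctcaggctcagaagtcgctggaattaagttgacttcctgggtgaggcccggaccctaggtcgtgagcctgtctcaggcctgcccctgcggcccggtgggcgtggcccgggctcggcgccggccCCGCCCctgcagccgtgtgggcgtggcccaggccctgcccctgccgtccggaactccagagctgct
Ppard, chr17:28232504-28232803, plus strand: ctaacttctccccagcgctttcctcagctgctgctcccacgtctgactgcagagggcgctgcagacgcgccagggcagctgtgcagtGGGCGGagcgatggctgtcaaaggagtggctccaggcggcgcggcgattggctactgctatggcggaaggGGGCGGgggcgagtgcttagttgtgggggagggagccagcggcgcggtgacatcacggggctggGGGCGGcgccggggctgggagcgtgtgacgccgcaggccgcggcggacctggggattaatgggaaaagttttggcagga
Hadhb, chr5:30155003-30155302, plus strand: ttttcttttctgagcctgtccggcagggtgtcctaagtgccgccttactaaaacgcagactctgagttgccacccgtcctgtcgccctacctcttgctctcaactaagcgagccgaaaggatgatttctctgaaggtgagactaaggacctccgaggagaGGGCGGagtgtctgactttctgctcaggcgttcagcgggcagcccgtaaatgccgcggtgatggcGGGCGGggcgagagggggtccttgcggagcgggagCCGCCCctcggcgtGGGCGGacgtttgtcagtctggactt
The windows of Acads, Ppard and Hadhb were 62.7%, 68.3% and 60.7% G or C, against a median of 52.7% over 32851 promoter windows. GC boxes numbered 1, 3 and 4 in these windows, and 9 of the 12 windows of the 10 genes held at least 1, against 35.7% of all windows. The hexamer AGGTCA, the core of many nuclear receptor elements, stood on either strand in 5 of the 12, in Acadm, Acadvl, Cpt1a and 2 alternative Pparg windows, and in 16.3% of all. The PPAR element with a pair of these hexamers in tandem, 1 base apart, was found in 0 of the 12 windows on either strand and in 0.040% of all. None of the 3 windows printed holds AGGTCA. These letters describe 300 bases around each start and nothing beyond them. The Hadha and Hadhb windows share 228 bases, chr5:30155003-30155230, with 272 bases between the RefSeq starts. The shared bases hold 1 GC box, which counts for both windows. As Pparg also has more than 1 window, the 12 windows are not all separate.

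Cpt1a and Cpt2, which serve the entry of fatty acids into mitochondria, were not called in the reported fit. Cpt1a, the liver-type carnitine palmitoyltransferase at the outer membrane and the main control point of the pathway, was the most abundant of the 10 by reads. It measured 7.69 at the lowest, 7.80 at the median and 7.86 at the highest in mimic libraries on the log2 CPM scale, against 7.69, 7.76, 7.74, 7.66 and 7.59 in control replicates 1, 2, 3, 4 and 6. The groups overlapped, and the log2 fold change of 0.092 ± 0.043 (SE) did not pass (limma adjusted p = 0.112); in a voom fit with sample weights it did (0.11, adjusted p = 0.0321). Cpt2, which reforms acyl-CoA inside the mitochondrion, lay between 3.76 and 4.06 log2 CPM in mimic libraries and between 3.85 and 4.14 in controls, a log2 fold change of -0.060 ± 0.067 that did not pass (limma adjusted p = 0.517). The other carnitine palmitoyltransferase genes were barely transcribed: Cpt1b, the muscle form, had 5 reads over the mimic libraries and 10 over the controls, and Cpt1c, a brain form, had 42 and 45.

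The acyl-CoA dehydrogenases introduce the double bond at the start of each round. Among those of the 10 genes, only Acads passed under all 20 alternative settings. Acads, the short-chain enzyme (ENSMUSG00000029545, chromosome 5, 115110299 to 115119346, minus strand, GENCODE M21 on GRCm38), had log2 CPM of 5.48, 5.24, 5.06, 4.92, 5.18 and 4.93 in mimic replicates 1 to 6, against 5.59, 5.60, 5.53, 5.48 and 5.63 in control replicates 1, 2, 3, 4 and 6. Mimic replicate 1 lay level with the lowest control, and the other 5 were lower than every control. The means were 5.14 ± 0.21 (SD, n = 6) with the mimic and 5.57 ± 0.060 (SD, n = 5) in controls, a 1.35-fold fall (limma adjusted p = 0.00152). Mimic replicates 3, 4 and 6 were the lowest for Acads, and in those libraries reads also shifted most towards long transcripts. The slope of a library's log2 deviation from the control mean on log10 transcript length was 0.31, 0.41 and 0.35 in mimic replicates 3, 4 and 6, and -0.096, 0.17 and 0.11 in mimic replicates 1, 2 and 5, against -0.052 to 0.035 in controls. Without mimic replicates 3, 4 and 6 the log2 fold change of Acads was -0.26 (limma adjusted p = 0.00259) and with each library's trend on transcript length removed it was -0.38 (adjusted p = 0.00028). The part of this shift in the fall of Acads was not tested beyond these values.

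Acadm, the medium-chain enzyme (ENSMUSG00000062908, chromosome 3, 153922357 to 153944632, minus strand), fell by a small amount with little spread. Its log2 CPM was 5.57 at the lowest, 5.60 at the median and 5.65 at the highest with the mimic, against 5.68, 5.70, 5.66, 5.81 and 5.71 in control replicates 1, 2, 3, 4 and 6. The groups did not overlap, with each mimic library lower than every control, as was so for 6.04% of genes tested. The difference was -0.11 ± 0.040 on the log2 scale (SE; limma adjusted p = 0.0455). The call was lost when any 1 library other than mimic replicate 1 was left out (-0.12 to -0.086, adjusted p from 0.0509 to 0.130) and after the length correction (-0.066, adjusted p = 0.253).

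Acadl, the long-chain enzyme (ENSMUSG00000026003, chromosome 1, 66830839 to 66863277, minus strand), was the only member called higher. Its log2 CPM was 5.65 at the lowest, 5.78 at the median and 5.92 at the highest with the mimic, against 5.60, 5.66, 5.65, 5.48 and 5.66 in control replicates 1, 2, 3, 4 and 6. Mimic replicate 2 fell within the control range, and the other 5 mimic libraries lay above it, replicate 1 by a narrow margin. The call (0.16 ± 0.053 on the log2 scale, SE; limma adjusted p = 0.034) did not pass when control replicate 1, 3 or 4, or mimic replicate 3, 4, 5 or 6, was left out (0.13 to 0.17, adjusted p from 0.0502 to 0.1004). Without mimic replicates 3, 4 and 6 together it was 0.085 (adjusted p = 0.257), and after the length correction 0.21 (adjusted p = 0.0126).

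Acadvl, the very-long-chain enzyme of the inner membrane, lay between 4.77 and 4.87 log2 CPM with the mimic and between 4.70 and 4.89 in controls (log2 fold change -0.015 ± 0.046, SE; limma adjusted p = 0.827). Its coding transcript shares 256 bases with Dvl2, a gene on the other strand that was called lower (-0.33 ± 0.071, limma adjusted p = 0.00341), and without a known strand setting their reads in that overlap cannot be told apart. Per kilobase of transcript, the shares of Acads and Acadl among the 4 dehydrogenases were compared without a test. Acads made up 22.5% ± 3.1 (SD, n = 6) of their summed CPM per kilobase with the mimic and 28.3% ± 0.73 (SD, n = 5) in controls. Acadl made up 33.9% ± 2.6 with the mimic and 28.5% ± 1.3 in controls. For Acadl all 6 mimic libraries lay above all 5 controls (30.5% to 37.2% against 26.4% to 29.8%), and for Acads the ranges overlapped (19.2% to 27.5% against 27.0% to 28.8%). The share of Acadl also rises when Acads falls, and the log2 CPM of Acadl itself overlapped between the groups.

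**Figure D2:**
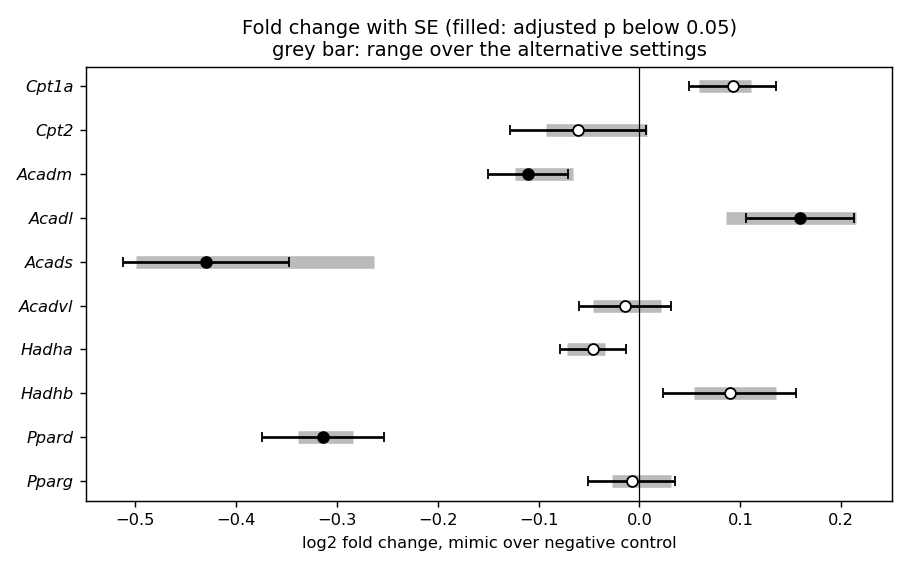
Points give the log2 fold change of mimic over negative control with its SE for each of the 10 genes, filled where the adjusted p was below 0.05, and grey bars span the values under the 20 alternative settings. The bars of Acads and Ppard end at -0.26 and -0.28 on the right, and those of Acadvl, Cpt2 and Pparg cross 0.

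Hadha, the alpha subunit of the trifunctional protein (ENSMUSG00000025745, chromosome 5, 30118304 to 30155162, minus strand), was the steadiest of the 10. Its log2 CPM ran from 7.50 to 7.58 with the mimic and from 7.58 to 7.62 in controls, with SDs of 0.026 (n = 6) and 0.016 (n = 5). All mimic libraries lay just below all controls, as was so for 6.04% of genes tested. Yet the difference of -0.046 ± 0.033 (SE) on the log2 scale did not pass (limma adjusted p = 0.299). Hadhb, the beta subunit with the thiolase activity (ENSMUSG00000059447, chromosome 5, 30155248 to 30184593, plus strand), ran from 3.93 to 4.13 log2 CPM with the mimic and from 3.79 to 4.11 in controls, and its log2 fold change of 0.089 ± 0.066 did not pass either (limma adjusted p = 0.317).

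The start windows of these subunit genes overlap, yet Hadha had 11.6 ± 0.65 times the reads of Hadhb with the mimic (SD, n = 6) and 12.7 ± 1.3 times in controls (SD, n = 5). Per kilobase of the longest coding transcript the ratios were 5.90 ± 0.33 with the mimic and 6.50 ± 0.67 in controls. The whole coding sequence of Hadhb, 1428 of the 2048 bases of its transcript, also stands in the processed pseudogene Gm13910 (chromosome 2, 108948806 to 108950233) with 3 substitutions: G320A, A512G and G862A, counted from 1 at the 5′ end of the Hadhb transcript, Hadhb base first. Bases 291 to 350 of that transcript and the matching bases of the copy show how little separates them, with the differing base in capitals.
Hadhb: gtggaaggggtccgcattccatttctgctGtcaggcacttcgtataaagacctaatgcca
Gm13910: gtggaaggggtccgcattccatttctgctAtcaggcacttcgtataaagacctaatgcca
A further copy, Gm9108, matched 1426 bases at 97.6%. Gm13910 itself was assigned 152 reads over the mimic libraries and 95 over the controls, against 2274 and 1561 for Hadhb. How the authors' counting treated reads that fit several places is not given in the sources used here, so the level of Hadhb is uncertain. As an extreme case, all reads of Hadhb were divided by the 620 bases outside the copied part, though reads there were not counted separately. They would then come to 26.2 ± 1.3 CPM per kilobase with the mimic and 24.7 ± 2.5 in controls. Hadha over its whole transcript was at 46.6 ± 0.83 and 48.1 ± 0.54. The part of the copies in the low Hadhb value was not tested.

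Ppard, which encodes PPAR-delta (ENSMUSG00000002250, chromosome 17, 28232700 to 28301474, plus strand), fell in every mimic library. Its log2 CPM was 2.94 at the lowest, 3.10 at the median and 3.17 at the highest with the mimic, against 3.41, 3.30, 3.46, 3.42 and 3.43 in control replicates 1, 2, 3, 4 and 6. The highest mimic library lay below the lowest control, and groups without overlap, in either direction, were seen for 14.9% of genes tested. The fall was 1.24-fold, with 151 to 228 reads per mimic library against 200 to 248 per control library (log2 fold change -0.31 ± 0.061, SE; limma adjusted p = 0.00147). Unlike Acads, Ppard was lowest in mimic replicate 1, the library with the slope of -0.096 on transcript length. Without mimic replicates 3, 4 and 6 its log2 fold change was -0.33 (adjusted p = 0.00358), and after the length correction it was also -0.33 (adjusted p = 0.000475).

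**Figure D3:**
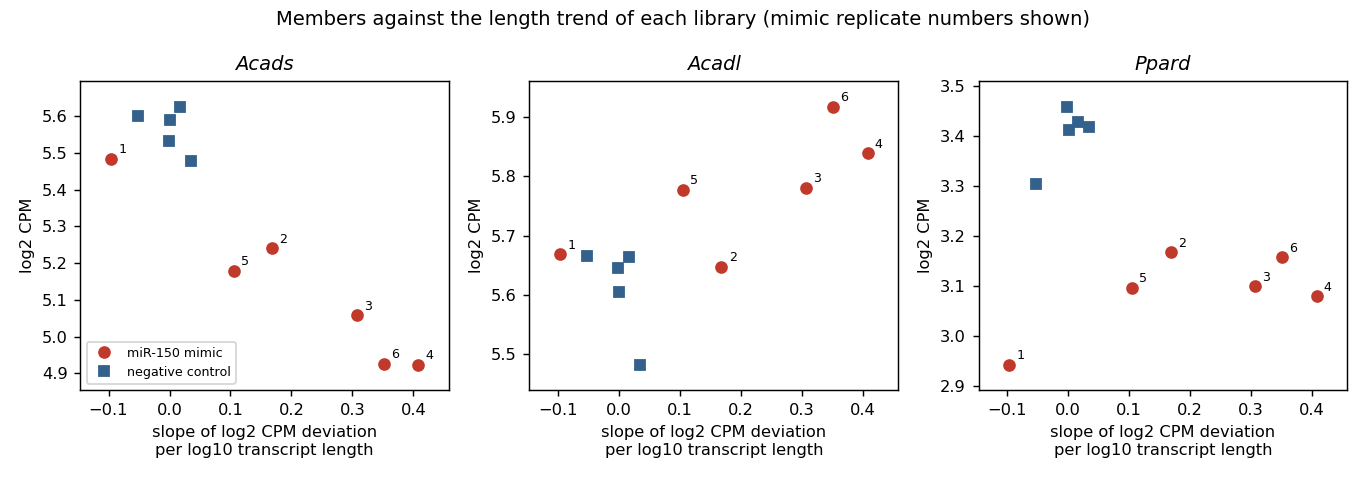
The log2 CPM of Acads, Acadl and Ppard is plotted for each library against the slope of that library's log2 deviation from the control mean on log10 transcript length; circles are mimic libraries with their replicate numbers and squares are negative control libraries. Acads is lowest and Acadl highest in the mimic libraries with slopes from 0.31 to 0.41, while Ppard lies between 2.94 and 3.17 in mimic libraries along the whole axis.

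Pparg, which encodes PPAR-gamma (ENSMUSG00000000440, chromosome 6, 115360951 to 115490399, plus strand), did not pass. Its log2 CPM was 6.33 at the lowest, 6.37 at the median and 6.42 at the highest with the mimic, against 6.51, 6.42, 6.35, 6.32 and 6.30 in control replicates 1, 2, 3, 4 and 6. The mimic values lay inside the control range, and the log2 fold change was -0.0077 ± 0.043 (SE; limma adjusted p = 0.909). Per kilobase, Pparg was therefore 15.1 ± 1.1 times the level of Ppard with the mimic (SD, n = 6) and 12.2 ± 1.0 times in controls (SD, n = 5), and the ranges of 14.1 to 17.2 and 11.3 to 13.4 did not overlap. Ppara, the PPAR form best known from liver, was almost absent, with 9 reads over the mimic libraries and 10 over the controls.

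In level per kilobase of coding transcript the mimic libraries ranked Cpt1a (51.0 ± 2.2 CPM per kilobase; SD, n = 6), Hadha (46.6 ± 0.83), Pparg (39.0 ± 0.88), Acadl (28.6 ± 2.0), Acadm (23.7 ± 0.45), Acads (19.0 ± 2.9), Acadvl (12.98 ± 0.34), Hadhb (7.92 ± 0.39), Cpt2 (6.37 ± 0.45) and Ppard (2.60 ± 0.14). In controls (n = 5) Hadha (48.1 ± 0.54) and Cpt1a (47.8 ± 2.3) did not differ beyond their spread, and neither did Acadm (25.6 ± 1.1), Acadl (25.6 ± 1.3) and Acads (25.3 ± 1.0). Hadhb (7.47 ± 0.75) and Cpt2 (6.65 ± 0.57) overlapped in controls as well. The summed reads of the 8 enzymes were nearly the same in both groups, 606 ± 12.8 CPM with the mimic (583.6 to 618.4) and 608 ± 10.9 in controls (593.9 to 622.1). Most of this sum came from Cpt1a (220 CPM with the mimic, 206 in controls) and Hadha (187 and 193), so it says little of the other enzymes. The levels rest on the longest protein-coding transcript in GENCODE M21, which may not be the form these cells use.

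**Figure D4:**
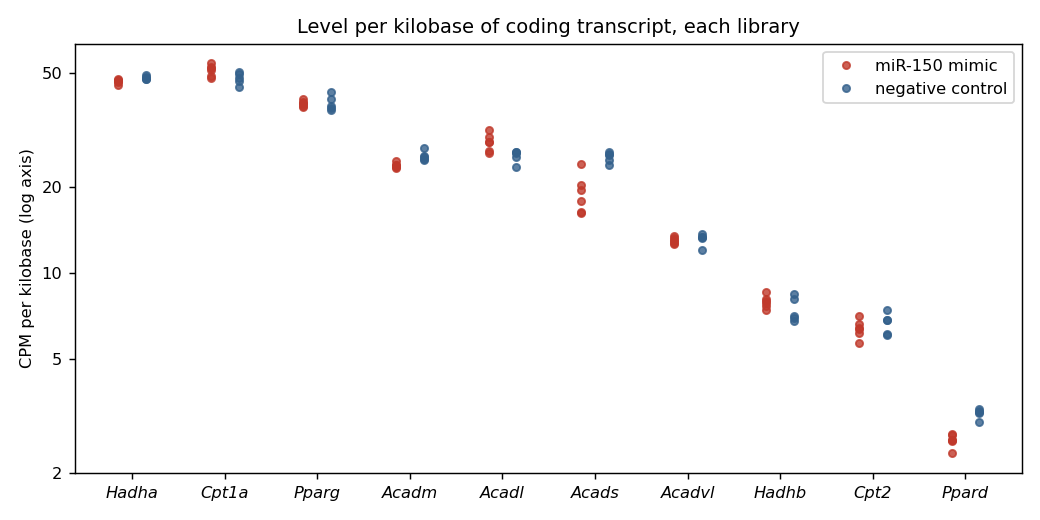
CPM per kilobase of coding transcript is shown on a log axis for each library, genes ordered by their control mean, with mimic libraries left and negative control libraries right in each pair. Acadm, Acadl and Acads coincide in controls at 25.3 to 25.6 CPM per kilobase on average, while in the mimic libraries Acads overlaps Acadm in replicate 1 and is the lowest of these genes in the others.

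By the root mean square difference of centred log2 CPM over the 11 libraries, the genes nearest to Acads were Pgls (0.0386), an enzyme of the pentose phosphate pathway, Rabac1 (0.0424), and Mvd (0.0449), an enzyme of cholesterol synthesis. Those nearest to Ppard were Pcdhga8 (0.0588), Klf9 (0.0607), a transcription factor, and Arhgap28 (0.0749). Pcdhga8 belongs to a cluster of protocadherin genes that share exons, so its own value is uncertain.

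The wider pathway was read from 10 further lists of 94 genes, of which 84 passed the filter. Of these 84, 24 fell and 10 rose with the mimic, a share of 40.5% called against 30.0% of all genes, with a median log2 fold change of -0.015. In 17 of the 84 the groups did not overlap, against 14.9% of all genes tested in either direction. Each mimic library was lower than every control in 12, against 6.04% of all genes, and higher in 5. Without mimic replicates 3, 4 and 6 the count of genes that fell was 15, and without control replicate 1 the count that rose was 6.

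The uptake and activation list, which feeds the pathway, went both ways, with 2 of 11 genes higher and 2 lower. That is 36.4% called, against 30.0% of all genes tested. Fabp4, a cytosolic fatty acid carrier and a classic PPAR-gamma target, rose by 0.22 ± 0.041 on the log2 scale (SE; limma adjusted p = 0.0013), with a mean of 9.90 ± 0.075 log2 CPM with the mimic (SD, n = 6) and 9.68 ± 0.043 in controls (SD, n = 5). Slc27a4, a fatty acid transport protein with acyl-CoA synthetase activity, fell by 0.26 ± 0.059 (limma adjusted p = 0.00401). It measured -0.16 (adjusted p = 0.0145) without mimic replicates 3, 4 and 6. Dbi, the acyl-CoA binding protein, fell by 0.43 ± 0.091 (limma adjusted p = 0.00375). For Dbi the value was -0.20 (adjusted p = 0.00179) after the length correction and -0.30 (adjusted p = 0.184) without mimic replicates 3, 4 and 6.

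In the carnitine shuttle, 1 of 4 tested genes fell and none rose, or 25% called against 30.0% of all genes tested. That gene was Crat, carnitine acetyltransferase, at -0.23 ± 0.048 (SE; limma adjusted p = 0.00253). Its groups did not overlap, as was so in either direction for 14.9% of genes tested. Without mimic replicates 3, 4 and 6 Crat was at -0.15 (limma adjusted p = 0.00710). Of the 16 other mitochondrial beta-oxidation enzymes, 6 fell and 1 rose, or 43.8% called against the same 30.0%. The lowest p-values belonged to Acad10 (-0.32 ± 0.077), a further acyl-CoA dehydrogenase, Hsd17b10 (-0.32 ± 0.077), a short-chain hydroxyacyl-CoA dehydrogenase, and Acot13 (-0.33 ± 0.089), a thioesterase (limma adjusted p of 0.00683, 0.00702 and 0.0122). Acad10 shares 1614 bases at 95.3% identity with Acad12, so the split between them is uncertain. After the length correction Hsd17b10 was at -0.15 (adjusted p = 0.0147) and Acot13 at -0.11 (adjusted p = 0.125); without mimic replicates 3, 4 and 6 they were at -0.17 (adjusted p = 0.0324) and -0.18 (adjusted p = 0.0988).

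None of the 3 genes of the electron transfer flavoprotein chain, which passes electrons from the dehydrogenases to the respiratory chain, was called; the lowest p belonged to Etfb, at -0.053 ± 0.040 (SE; limma adjusted p = 0.33), and 0.13 (adjusted p = 0.105) after the length correction. In the branch that handles propionyl-CoA from odd chains, 2 of 4 genes fell, where 14.6% of all genes tested were called lower. Pccb, the beta subunit of propionyl-CoA carboxylase, had the smallest p of all 84 genes: its log2 CPM averaged 4.59 ± 0.046 with the mimic (SD, n = 6) and 4.99 ± 0.056 in controls (SD, n = 5), a log2 fold change of -0.39 ± 0.045 (limma adjusted p = 6.26e-06), and it lay between -0.42 and -0.36 in the 20 alternatives. Mcee, which acts next in the branch, fell by 0.20 ± 0.065 (adjusted p = 0.0286). That call was lost without control replicate 1 or 2 or mimic replicate 3 or 6 (-0.20 to -0.16, adjusted p from 0.0536 to 0.0715), without mimic replicates 3, 4 and 6 together (-0.12, adjusted p = 0.247) and after the length correction (-0.0070, adjusted p = 0.931).

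Peroxisomes shorten very long chains before mitochondria take over, and 4 of 13 tested genes of that list fell while 2 rose. That is 46.2% called, against 30.0% of all genes tested. Abcd2, a peroxisomal importer of very-long-chain acyl-CoA, rose by 0.29 ± 0.053 (SE), Acox3, an acyl-CoA oxidase, fell by 0.14 ± 0.033 and Hsd17b4, the D-bifunctional protein, fell by 0.15 ± 0.038 (limma adjusted p of 0.000908, 0.00765 and 0.00769). For each of these 3 genes, named for the smallest p of their list, the groups did not overlap, as was so for 14.9% of genes tested.

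Malonyl-CoA blocks CPT1, and AMP-activated kinase lowers malonyl-CoA. Of 9 tested genes in this control list 2 fell and none rose, or 22.2% called against 30.0% of all genes tested. Mlycd, the decarboxylase that removes malonyl-CoA, fell by 0.37 ± 0.084 (SE; limma adjusted p = 0.00444), and Stk11, the kinase LKB1 that activates AMP-activated kinase, fell by 0.23 ± 0.054 (limma adjusted p = 0.0061). For Mlycd and Stk11 the groups did not overlap, as was so in either direction for 14.9% of genes tested. Without mimic replicates 3, 4 and 6 their values were -0.20 (limma adjusted p = 0.0271) and -0.13 (adjusted p = 0.0281).

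**Figure D5:**
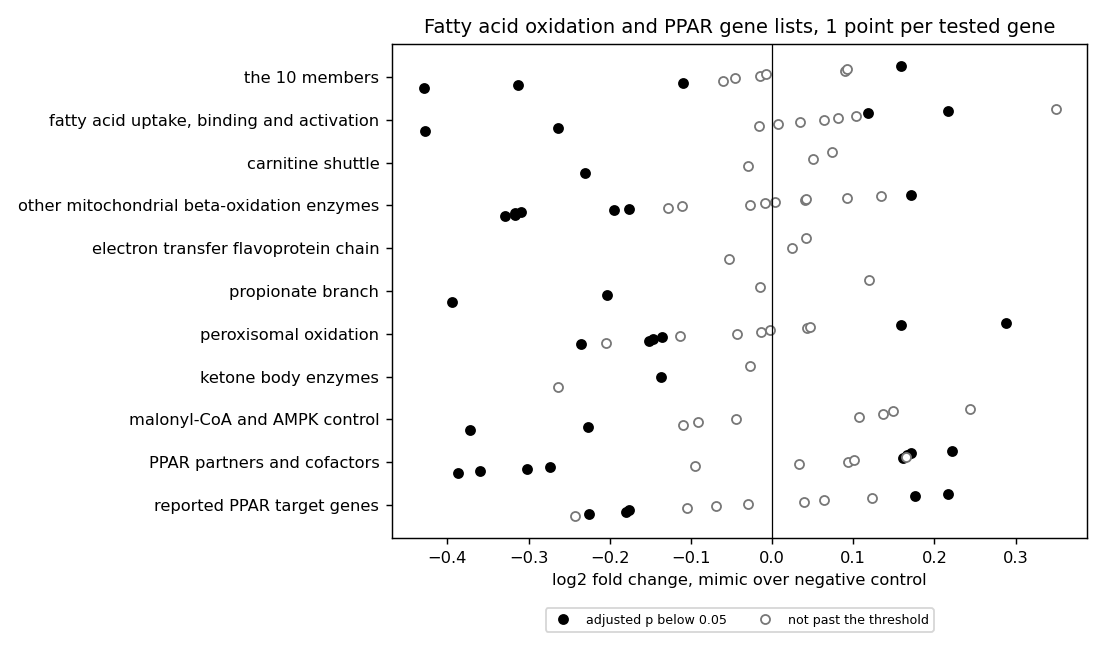
Each point is the log2 fold change of mimic over negative control of 1 tested gene, filled where the adjusted p was below 0.05, for the 10 genes described above and for the 10 further lists. Every list lies between -0.43 and 0.35, and the partners and cofactors of PPAR hold 4 called genes on each side of 0.

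The partners and cofactors of the PPARs split evenly, with 4 of 13 tested genes higher and 4 lower. That is 61.5% called, against 30.0% of all genes tested. Rxrb, a retinoid X receptor, fell by 0.39 ± 0.072 (SE; limma adjusted p = 0.00105) and was at -0.24 (adjusted p = 0.00227) without mimic replicates 3, 4 and 6. Rxra, the more abundant retinoid X receptor at 7.42 ± 0.072 log2 CPM with the mimic (SD, n = 6) and 7.51 ± 0.054 in controls (SD, n = 5), measured -0.095 ± 0.043 and did not pass (adjusted p = 0.0987), although it did after the length correction (-0.14, adjusted p = 0.0274). Lpin1, a phosphatidate phosphatase that also acts as a coactivator, fell by 0.27 ± 0.050 (adjusted p = 0.00089). Ppargc1b, the coactivator PGC-1-beta, fell by 0.30 ± 0.092 (adjusted p = 0.0221) at a low level of 487 reads over the mimic libraries and 435 over the controls, missed the threshold without control replicate 4 (-0.29, adjusted p = 0.0508) and with no filter on low values (-0.30, adjusted p = 0.104), and passed under 17 of the 20 alternatives. Ncoa3, a steroid receptor coactivator, rose by 0.17 ± 0.037 (adjusted p = 0.00307) and by 0.097 (adjusted p = 0.044) after the length correction.

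Reported PPAR target genes showed no single direction either, with 2 of 12 tested genes higher and 3 lower. That is 41.7% called, against 30.0% of all genes tested. Fabp4 is given above. Plin2, a lipid droplet coat protein, rose by 0.18 ± 0.041 (SE; limma adjusted p = 0.00554), with 11.46 ± 0.075 log2 CPM with the mimic (SD, n = 6) and 11.28 ± 0.037 in controls (SD, n = 5). Ucp2, a mitochondrial carrier of the uncoupling protein family, fell by 0.23 ± 0.052 (adjusted p = 0.00488); its transcripts share 305 bases with Dnajb13, so that part of its reads is uncertain. For Fabp4, Plin2 and Ucp2, named for the smallest p of the list, the groups did not overlap, against 14.9% of all genes tested. The alternatives called all 3 in each of 20 settings.

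The libraries held 20313901 to 25473814 assigned reads with the mimic and 18538509 to 22668862 in controls. Macrophage markers (8 genes) summed to 16310 to 19698 CPM with the mimic and 18086 to 20403 in controls. Markers of B cells, T or NK cells and mast cells stayed at or under 2.15 CPM per list in every library. The neutrophil list summed to 12.1 to 21.5 CPM with the mimic and 20.05 to 26.8 in controls, with S100a9 at 2 reads in all, and the eosinophil list to 27.4 to 28.9 with the mimic and 33.4 to 36.4 in controls. Of the 8 macrophage markers 2 rose (Fcgr1 and Adgre1) and 2 fell (Lyz2 and Cd14), while 30.0% of all genes tested were called. Of 3 tested neutrophil genes 2 fell, of 3 tested dendritic cell genes 1 fell (Cd209a), and the 1 tested eosinophil gene, Siglecf, fell too. Siglecf held most reads of its list, 3907 over the mimic libraries and 3537 over the controls. The untested eosinophil genes had 58 and 23 reads (Ccr3), 10 and 9 (Epx), and 3 and 2 (Prg2), so the eosinophil sum rests on Siglecf. The mesothelial and fibroblast list summed to 16.4 to 36.8 CPM with the mimic and 25.6 to 36.0 in controls, and the dendritic cell list to 3.52 to 4.87 and 4.14 to 5.58. The part of these cells in the differences above was not tested, and in bulk RNA fewer cells of a type cannot be told apart from less RNA per cell.

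The authors' deposited table gives the same directions for the called genes: -0.44 for Acads (limits -0.60 and -0.28), -0.31 for Ppard (limits -0.47 and -0.16), -0.11 for Acadm and 0.16 for Acadl. By the authors' deposited table, 2 of the 10 genes pass an adjusted p of 0.05, Acads (0.000882) and Ppard (0.00982), while Acadl (0.0741) and Acadm (0.151) do not.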

How the data were processed

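The tools named in the labels, per the submitters' processing notes, are edgeR, featureCounts, Subread and STAR. The sources used here give no versions, build, annotation or strand setting. The deposited table holds 32265 rows, of which the first per gene was kept (31936 genes). The authors deposited expression as log2 CPM. Undoing the log2 with 0.5 reads added and a scaled total per library returned whole reads, within 0.01 read, for 100% of values. The deposited p-values, fold change scores and log2 fold changes are the authors', and the test behind them was not given.

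The log2 CPM were fitted with limma 3.58.1 (R 4.3.3, statmod 1.5.0; group term, intensity trend, robust), keeping genes whose log2 CPM reached -1 in 5 or more libraries. Adjusted p-values are Benjamini-Hochberg over all 12969 genes, and the script was tested on simulated data. Recovered reads entered the rescaled, pseudocount and voom fits; no negative binomial model was run. Coordinates and lengths come from GENCODE M21 (31747 IDs matched); shared sequence was searched with blastn 2.17.0 at 95% identity or more, and promoters come from RefSeq (GRCm38.p6). The genes and lists were chosen with earlier results of these data known. Named from each list were up to 3 called genes by smallest p, or 1 where none was called, plus Ppara, Rxra and Ppargc1b, and the 3 genes nearest to each of 2 members; Cpt1b, Cpt1c, overlapping or copied genes and single markers were named after their values were seen. The genes of the ketone body list are plotted and counted with the rest, and their single results are not reported here. Same-numbered libraries did not deviate together (correlations from -0.061 to 0.062), and the reported fit did not pair them. These correlations cannot exclude a shared animal or culture, which the labels do not give. Plots were drawn with matplotlib 3.10.9, from tables made with numpy 2.4.6 and pandas 2.3.3.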

Additional observations from a re-analysis of the deposited data

Results flagged for a closer look

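In 66 sets of libraries (33 genes, each in the mimic and the negative control group) 2 values stood far from the rest of their group, where chance gives about 1 in 20 sets. Both were in negative control replicate 3. Acadvl had a log2 CPM of 4.70 in that library, below the 4.84 to 4.89 of the other controls; without it the log2 fold change of Acadvl was -0.046 and did not pass (limma adjusted p = 0.474). Acox3 had 7.85 there, against 7.90 to 7.91 in the other controls.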

How the results depend on the processing

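Across 20 alternative settings Acads (-0.50 to -0.26) and Ppard (-0.34 to -0.28) kept their direction and stayed past the threshold. The count of members called higher, 1 as reported, was 0 with no filter on low values, with unscaled library totals, with the replicate block and without mimic replicates 3, 4 and 6 together, 2 in the voom fit, and 0 to 1 with each library left out; the count called lower was 2 to 3 with each library left out. Leaving out mimic replicates 3, 4 and 6 also gave 1214 genes higher and 886 lower in place of 1997 and 1895, a member median of 0.0038, and 15 wider pathway genes lower; these libraries are fewer, and any further cause was not tested. With each library left out, genes higher ran from 1488 to 2693, genes lower from 1403 to 2506, the member median from -0.039 to -0.019, wider pathway genes higher from 6 to 11 and lower from 18 to 24. Among the members and the tested genes named from the pathway lists, signs turned only for Acadvl, Cpt2, Pparg and Etfb, none of which passed in any setting. Acadvl was at 0.0006 without mimic replicates 3, 4 and 6, at 0.021 after the length correction and from -0.046 to 0.0009 with each library left out. Cpt2 was at 0.0070 without mimic replicates 3, 4 and 6. Pparg was at 0.018 in that fit, at 0.031 after the length correction and from -0.027 to 0.025 with each library left out. The causes were not tested. Under the replicate block, on the libraries whose number occurs in both groups, Acadl (0.16, adjusted p = 0.0683) and Acadm (-0.11, adjusted p = 0.0936) lost their calls, as did Ppargc1b (-0.29, adjusted p = 0.0558). Depth limits Ppard most among the members, at 151 to 248 reads per library.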
